A study of Arabidopsis thaliana with 12 samples.

Results

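The aluminium-activated malate transporter (ALMT) family was followed in Arabidopsis thaliana inflorescences after induction of HAN (HANABA TARANU), which encodes a GATA factor that acts in the forming flower. Its members were taken as 10 loci of the family, of which 8 had a named probe, and all 8 were measured on at least 3 of the 4 arrays of each time point, among 18125 features tested in all. AT1G08440 and AT2G17470 (ALMT6) had no named probe and are not analysed here, nor are the 4 further family loci AT1G08430 (ALMT1), AT3G18440 (ALMT9), AT4G17585 and AT4G17970 (ALMT12). The family was selected on the large negative log2 ratios of AT3G11680 in these arrays, and the other loci were chosen by family membership. The values of AT3G11680 are therefore given as a description, with no test, while the other 7 loci were read from the fit over all features.

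ALMT proteins are membrane channels that let malate and other anions out of the cell or into the vacuole. The family is named for ALMT1, a root protein that releases malate in soils rich in aluminium, where malate binds the toxic metal ion. Other members have other settings. ALMT9 lies in the vacuolar membrane and carries chloride and malate, ALMT6 is a vacuolar malate channel of guard cells, and ALMT12 is an anion channel of guard cells that helps stomata to close. The number of each locus within the family is not given in the tables used here except for ALMT6, ALMT1, ALMT9 and ALMT12, so the other loci are called by their identifiers.

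All plants, Dex-treated and mock-treated, carried the transgene 35S:HAN-GR in the accession Landsberg erecta (Ler) and grew under continuous light. In them the constitutive 35S promoter drives HAN fused to the glucocorticoid receptor. Such a fusion stays out of the nucleus until dexamethasone (Dex), a steroid, binds it. Inflorescences with buds of stages 1 to 9 were compared at 4, 12 and 72 h after 10 µM Dex against mock-treated plants of the same line and time, on 4 arrays per time point with swapped dyes. Plants without the fusion were not among the samples, so a response to Dex itself and one to HAN-GR cannot be told apart. Values are log2 ratios centred on the median of each array, and they are ratios within one array, not levels. They do not show how strongly a gene was expressed, so the tissue could not be checked against its markers, and in whole inflorescences fewer cells of a type and less RNA per cell cannot be told apart.

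The direction of the ratio is not stated, and Dex over mock is assumed here. Correlations between arrays bear on whether they share a direction and cannot show which sample is the numerator. With values at the limits left out, all arrays of a time point correlated above 0 whatever their labelled dye (r of 0.18 to 0.64 for 4 h, 0.39 to 0.73 for 12 h, 0.061 to 0.51 for 72 h). With those values kept, 4 h arrays with the same labelled dye correlated at -0.82 and -0.81 over all gene probes, so a shared direction is not settled either. Those correlations ran with the blank-spot sign described below, since 4 h pairs of opposite dye and the same blank sign were at 0.87, and pairs of opposite blank sign were at -0.72 to -0.67 at 12 h and -0.75 to -0.49 at 72 h. Over the tested features alone, with limit values kept, the same 4 h pairs were at 0.0036 and 0.036. With the sign turned, every fall below becomes a rise and every rank from the lowest a rank from the highest. Blank spots sat at the upper limit of the scale, 6.64 or 100-fold, on 6 arrays and at the lower limit on the other 6, which are called positive-blank and negative-blank arrays. That sign ran with the labelled dye on 10 arrays and against it on 4 h replicates 1 and 3. For the family loci, calls at a time point that change without those 2 arrays, or when the blank-spot sign replaces the labelled dye in the fit, are given beside the values. Between 21888 and 22385 gene probes had a value on an array.

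AT3G11680 had the lowest mean of the family at each time point. At 4 h its log2 ratio was -3.00, -2.92, -2.86 and -3.16 on replicates 1 to 4, a mean of -2.98 ± 0.13 (SD, n = 4), or 7.91-fold lower. At 12 h it was -2.67, -2.79, -2.88 and -2.74, a mean of -2.77 ± 0.09 (n = 4, 6.81-fold). At 72 h it was -2.88, -3.52 and -3.06 on replicates 1, 2 and 4, a mean of -3.15 ± 0.33 (n = 3, 8.90-fold). On 72 h replicate 3 it sat at the lower limit, where the blank spots of that array also lay. That value could not be told from a blank spot and was treated as missing. The 11 measured values lay within a narrow band, each far below 0. Its rank from the lowest was 7 of 18125 features at 4 h, 10 at 12 h and 15 at 72 h.

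The replicates of AT3G11680 lay closer together than those of most features at 12 h, where 10.5% of features had a smaller SD, and at 4 h, where 24.2% did. At 72 h its SD was near the median of all features (0.33 against 0.34). Positive-blank and negative-blank arrays gave means of -2.89 and -3.08 at 4 h and of -2.83 and -2.70 at 12 h. At 72 h the single negative-blank value was the -3.52 of replicate 2. The log2 ratio at 4 h differed from that at 12 h by 0.22 (12 h minus 4 h). The fitted value at 72 h was -3.17, a difference of -0.40 from 12 h. That difference was -0.18 without 72 h replicate 2, -1.21 with the limit value of replicate 3 kept and -0.04 with arrays scaled to equal median absolute deviation. The order of the time points changed with the scaling of the arrays, since quantile normalization put the 72 h value 0.74 above that at 12 h.

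**Figure D1:**
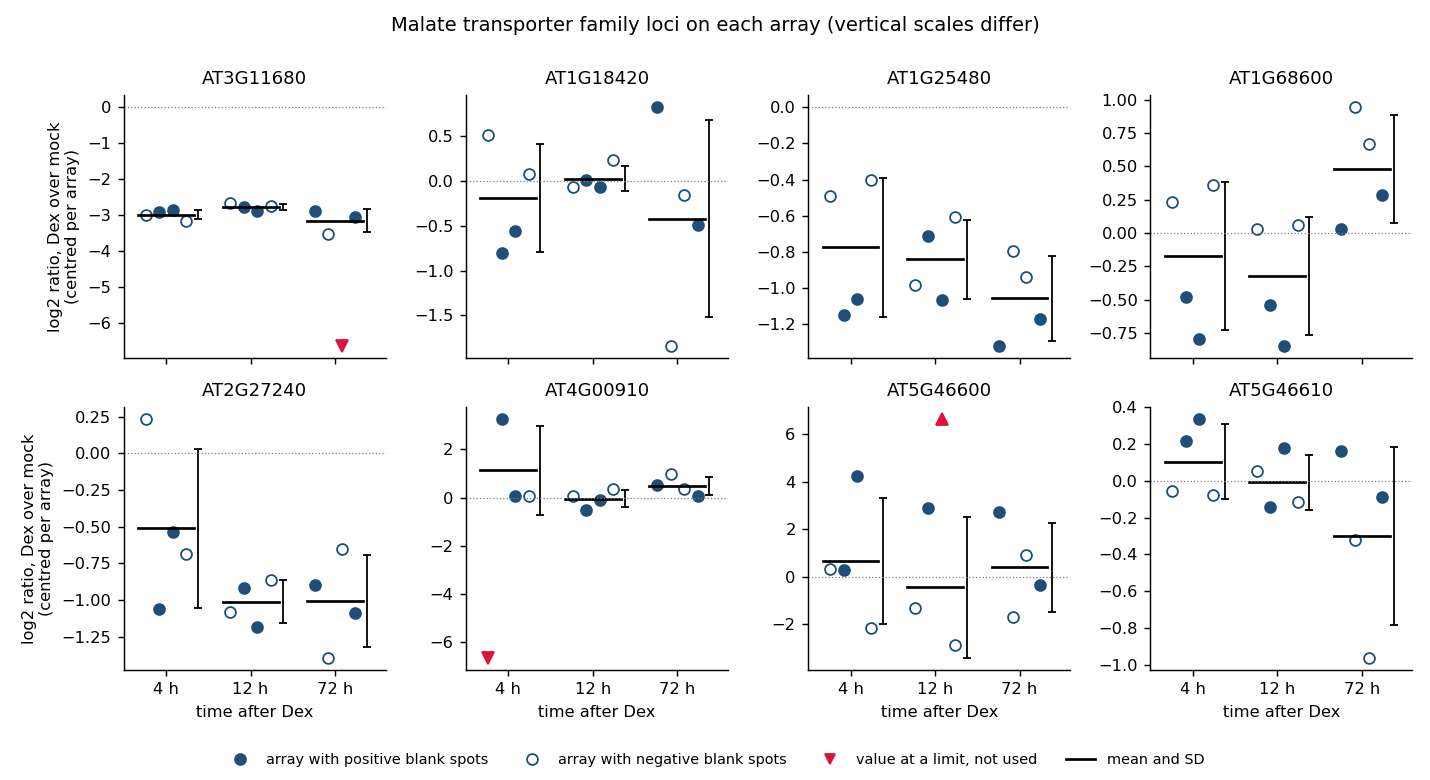
Centred log2 ratio of Dex over mock (vertical axis, scales differ between panels) of the 8 measured family loci at 4, 12 and 72 h (horizontal axis), with one point per array, filled for positive-blank and open for negative-blank arrays, lines for means and bars for the SD. AT3G11680 stayed between -3.52 and -2.67, AT1G25480 was below 0 on all 12 arrays, and red triangles mark deposited values at a limit that were not used.

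Among the other 7 loci, AT1G25480 fell at all 3 time points and AT2G27240 fell at 12 and 72 h. Thus 1 of 7 passed the test at 4 h, 2 at 12 h and 2 at 72 h, each lower, against 6.87%, 10.5% and 10.9% of all features called lower. By limma, 0 of the 7 were called higher, against 4.21%, 5.34% and 9.88% of all features. At an unadjusted p under 0.05, 2 of the 7 were lower at each time point, AT1G25480 and AT2G27240, against 11.5%, 15.5% and 16.7% of all features. At the same p, 1 was higher at 4 h (AT4G00910), 0 at 12 h and 1 at 72 h (AT1G68600), against 9.16%, 10.2% and 17.5%. The median fitted log2 ratio of the 7 was -0.17, -0.19 and -0.30 at 4, 12 and 72 h, beside medians of 0.0029, 0.012 and 0.0047 over all features. Each of these family medians is the fitted value of 1 locus that was not called, AT1G68600, AT5G46600 and AT5G46610 in order of time. They therefore do not show a fall of the whole family. With the blank-spot sign as the dye, the fitted 12 h value of AT5G46600 was 0.058.

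AT1G25480 was at -0.49, -1.15, -1.06 and -0.40 on the 4 h arrays, a mean of -0.77 ± 0.38 (n = 4, 1.71-fold; limma adjusted p = 0.00412). At 12 h it was at -0.98, -0.71, -1.07 and -0.61, a mean of -0.84 ± 0.22 (1.79-fold; limma adjusted p = 0.00194). The 72 h values were -1.32, -0.79, -0.94 and -1.17, a mean of -1.06 ± 0.24 (2.08-fold; limma adjusted p = 0.000446). All 12 arrays were below 0, which holds for 5.06% of features, and 3.21% of features were called lower at each of the 3 time points. At 4 h the positive-blank arrays, replicates 2 and 3, lay at -1.10 on average and the negative-blank arrays at -0.45. A fit of the 4 h arrays alone did not call the gene (limma adjusted p = 0.0989).

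AT2G27240 was below 0 on all arrays at 12 h, as 22.4% of features were, and at 72 h, as 16.6% were, but not at 4 h. At 12 h it was at -1.08, -0.92, -1.18 and -0.86, a mean of -1.01 ± 0.15 (n = 4, 2.02-fold; limma adjusted p = 0.00349). Values of -0.90, -1.39, -0.65 and -1.09 at 72 h gave a mean of -1.01 ± 0.31 (2.01-fold; limma adjusted p = 0.00325). Its 4 h values were 0.23, -1.06, -0.53 and -0.69, a mean of -0.51 ± 0.54 (limma adjusted p = 0.123). The one value above 0 was that of 4 h replicate 1, one of the 2 arrays whose blank spots go against the labelled dye. Without that array the 4 h estimate was -0.78 (limma adjusted p = 0.0101), and without both such arrays -0.87 (limma adjusted p = 0.0281). A fit of the 72 h arrays alone lost the 72 h call (limma adjusted p = 0.0672). Of its direct neighbours on the chromosome, the one tested under its name was CLV3, the signal peptide gene of the shoot meristem, at 0.14 ± 0.39, -1.09 ± 0.38 and -1.04 ± 2.41 (n = 3 each), which was not called (limma adjusted p = 0.949, 0.511 and 0.417).

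Between AT1G25480 and AT2G27240 the values overlapped at each time point.

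**Figure D2:**
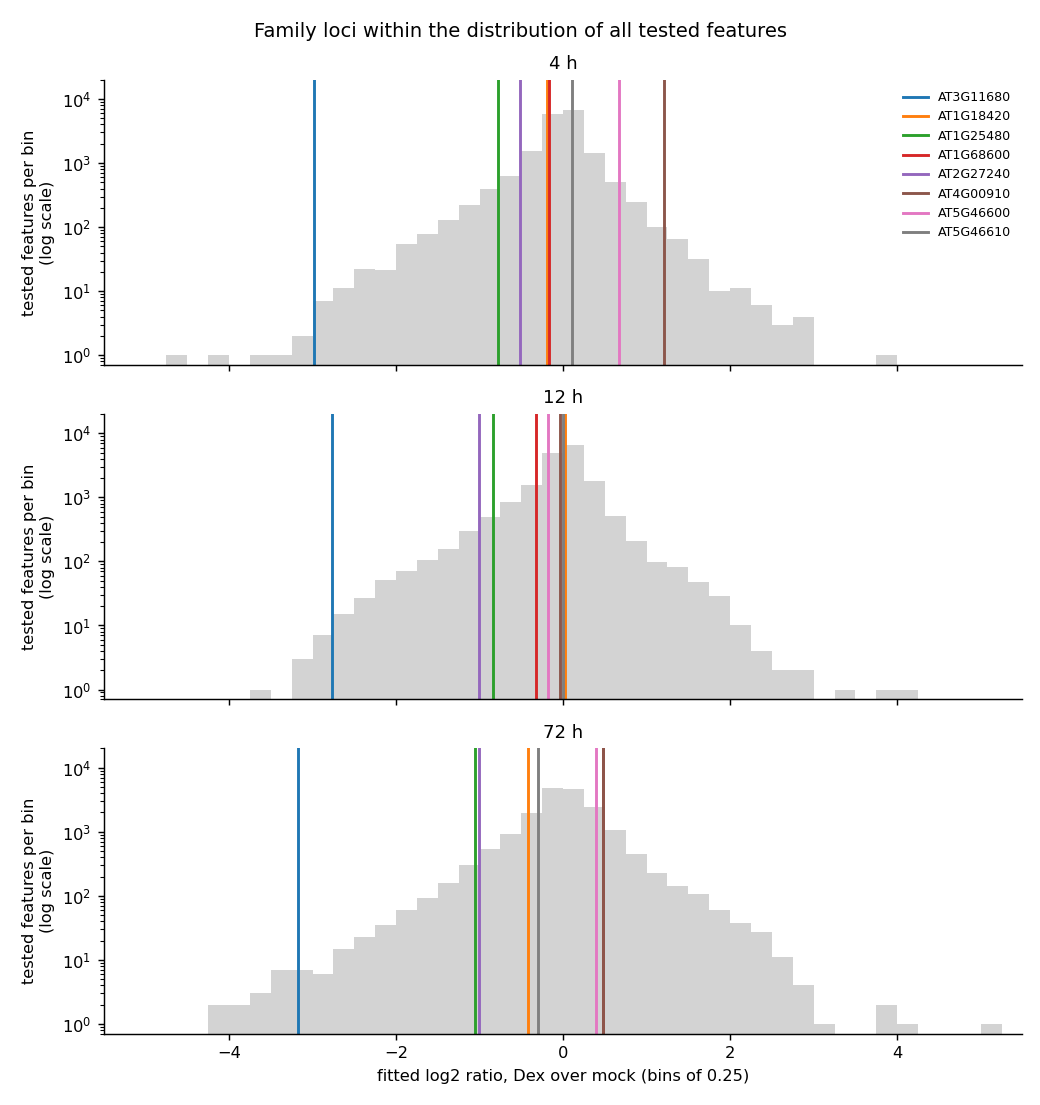
Number of tested features (vertical axis, log scale) in bins of 0.25 of the fitted log2 ratio of Dex over mock (horizontal axis) at 4, 12 and 72 h, with a coloured line for each of the 8 family loci. The line of AT3G11680 lies in the far lower tail at each time point, those of AT1G25480 and AT2G27240 in the lower flank, and at 72 h the lines of AT1G68600 and AT4G00910 coincide near 0.5.

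AT1G68600 depended on how the dye was treated. It was at 0.23, -0.48, -0.80 and 0.36 at 4 h and at 0.03, -0.54, -0.85 and 0.06 at 12 h. At 72 h it was at 0.03, 0.94, 0.67 and 0.28, above 0 on all 4 arrays, which 16.0% of features were. The means were -0.17 ± 0.56, -0.33 ± 0.44 and 0.48 ± 0.41 (n = 4 each), and with the labelled dye in the fit none passed (limma adjusted p = 0.778, 0.367 and 0.116).

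Within each time point, both positive-blank arrays of AT1G68600 lay below both negative-blank arrays, with mean differences of -0.93, -0.74 and -0.65 at 4, 12 and 72 h. Of all features 5.77% showed this order at all 3 time points, and no other member did. With the blank-spot sign as the dye term, AT1G68600 was lower at 12 h (limma adjusted p = 0.0335) and higher at 72 h (limma adjusted p = 0.0040). In that fit 11.8% of features were called lower at 12 h and 11.8% higher at 72 h. Its response at 72 h then exceeded that at 12 h by 0.81, with a 95% interval of 0.51 to 1.10 (limma adjusted p = 0.0083), and that at 4 h by 0.65, with an interval of 0.36 to 0.94 (limma adjusted p = 0.0112). Such positive differences were called for 3.69% and 5.83% of features. Without 4 h replicates 1 and 3, the labelled dye and the blank-spot sign are the same on every array left. The fit without them made the 12 h (limma adjusted p = 0.0454) and 72 h calls (limma adjusted p = 0.00747), but it is not separate from the blank-spot fit. With the labelled dye and without 4 h replicate 3 alone, the 72 h call was made (limma adjusted p = 0.0214). A fit of the 12 h arrays alone, where labelled dye and blank-spot sign are the same, called it lower (limma adjusted p = 0.0412). That fit called 4801 of 18125 features. A fit of the 72 h arrays alone did not call it and called 614 features.

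AT1G18420, AT4G00910, AT5G46600 and AT5G46610 were called at 0 of the 3 time points. AT1G18420 was at 0.51, -0.80, -0.55 and 0.09 at 4 h, a mean of -0.19 ± 0.60 (n = 4; limma adjusted p = 0.885). It stayed between -0.07 and 0.23 at 12 h, a mean of 0.03 ± 0.14. At 72 h it spread from -1.85 on replicate 2 to 0.83 on replicate 1, a mean of -0.42 ± 1.10 (limma adjusted p = 0.402). The 95% interval of its fitted ratio at 12 h was -0.70 to 0.76. With array weights its 4 h value was -0.61 and was called lower (limma adjusted p = 0.0414), in a fit that called 6579 of 18125 features at 4 h.

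AT4G00910 was at 3.26, 0.05 and 0.07 on 4 h replicates 2 to 4 and at the lower limit on replicate 1. Its 4 h mean of 1.12 ± 1.85 (n = 3; limma adjusted p = 0.218) rested on replicate 2, and without that array the fitted value was -0.16 (limma adjusted p = 0.91). With the limit value of replicate 1 kept, the fitted 4 h value was -0.82 in place of 1.20. At 12 h it lay between -0.50 and 0.37, and at 72 h between 0.05 and 0.96, above 0 on all 4 arrays (mean 0.47 ± 0.38; limma adjusted p = 0.481). Without 4 h replicate 2 its 72 h value, unchanged at 0.47, passed the test (limma adjusted p = 0.0429). Fitted without the other time points, its 3 values at 4 h gave an estimate of 1.66 (limma adjusted p = 0.0207), and array weights gave 2.62 (limma adjusted p = 0.00117). Of 18125 features, these fits called 1145 and 6579 at 4 h. Both sign and call of AT4G00910 at 4 h thus depended on the processing.

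AT5G46600 and AT5G46610 are direct neighbours on their chromosome, and their probes gave different pictures. AT5G46600 swung from -2.17 to 4.23 at 4 h, from -2.88 to 2.87 at 12 h and from -1.72 to 2.72 at 72 h, with a value at the upper limit on 12 h replicate 3. Its means were 0.66 ± 2.65 (n = 4), -0.45 ± 2.98 (n = 3) and 0.39 ± 1.89 (n = 4), and 99.2%, 99.8% and 97.4% of features had a smaller SD. On 12 h replicate 4, at -2.88, it was as low as AT3G11680. The fitted intervals were wide, from -1.74 to 3.07 at 4 h (limma adjusted p = 0.869, 0.969 and 0.831). The positive-blank arrays averaged 2.25 at 4 h and 1.19 at 72 h, with a single usable value of 2.87 at 12 h, and the negative-blank arrays averaged -0.92, -2.11 and -0.41 at 4, 12 and 72 h.

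AT5G46610 stayed between -0.08 and 0.34 at 4 h and between -0.14 and 0.18 at 12 h. At 72 h it ranged from -0.96 on replicate 3 to 0.16 on replicate 1, a mean of -0.30 ± 0.48 (n = 4; limma adjusted p = 0.177).

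The change of the response between time points was tested for the same 7 loci. By limma, 0 passed from 4 to 12 h, from 12 to 72 h or from 4 to 72 h, where 2.43%, 4.14% and 8.55% of all features did. At an unadjusted p under 0.05, 0, 1 and 1 did, AT1G68600 both times, against 12.8%, 18.9% and 22.6% of all features. AT2G27240 differed by -0.50 from 4 to 12 h, with a 95% interval of -1.08 to 0.08 (limma adjusted p = 0.487), and by 0.0045 from 12 to 72 h, with an interval of -0.57 to 0.58. For AT1G25480 the difference from 4 to 72 h was -0.28, with an interval of -0.72 to 0.16 (limma adjusted p = 0.42). The intervals of AT5G46600 were the widest of the family, from -4.55 to 2.86 between 4 and 12 h.

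**Figure D3:**
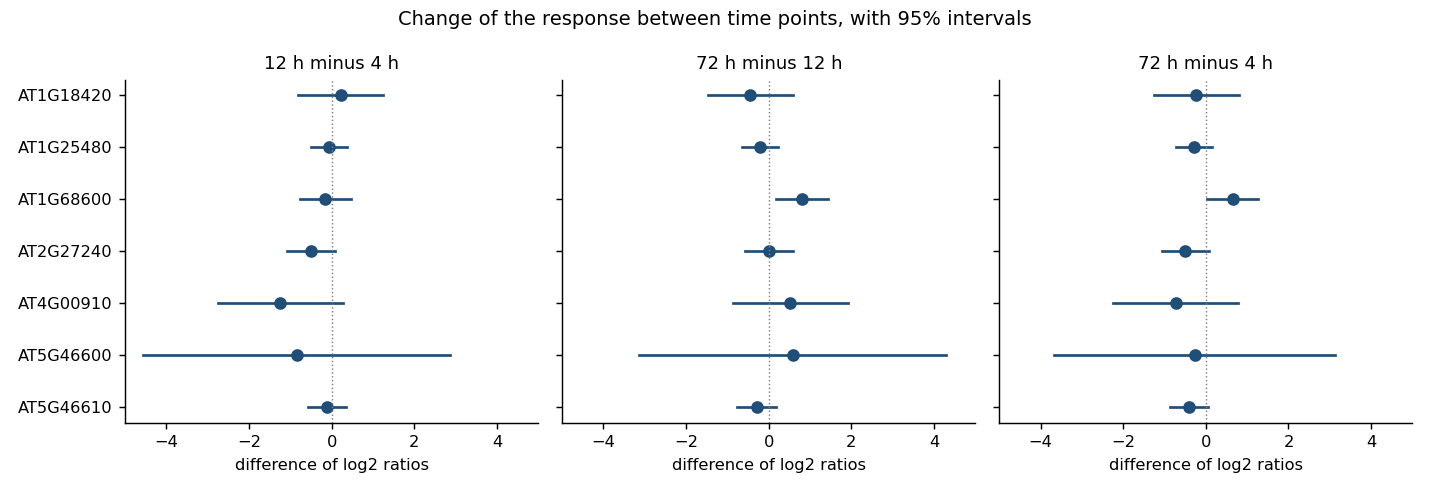
Difference of the fitted log2 ratios between time points (horizontal axis) for the 7 loci tested (vertical axis), with points for the estimate and lines for the 95% interval of the limma fit with the labelled dye. The intervals of AT1G68600 lie above 0 for 72 h minus 12 h and 72 h minus 4 h before adjustment, those of the other 6 loci include 0, and those of AT5G46600 are the widest.

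Of the 9627 other named loci with values on all arrays, the 5 nearest to AT3G11680 over its 11 measured arrays were AT3G62930, AT4G15660, AT5G59080, AT4G15670 and AT1G61660. Their root mean square differences from it were 0.44, 0.48, 0.55, 0.56 and 0.58 on the log2 scale. AT3G62930, a glutaredoxin gene, was at -2.50 ± 0.23, -3.12 ± 0.29 and -2.96 ± 0.85 at 4, 12 and 72 h (n = 4 each). AT1G61660, a gene of the bHLH transcription factors, was at -2.63 ± 0.28, -2.43 ± 0.19 and -2.36 ± 0.19. AT4G15660, AT5G59080 and AT4G15670, whose gene classes are not given here, had means between -2.71 and -2.17 over the time points. No family locus was among the 5, and AT4G00910 and AT5G46600, without values on all arrays, were not compared. Since AT3G11680 was selected on its large negative log2 ratios, this does not measure how alike the family loci are. On 72 h replicate 3, the array of widest spread, AT3G11680 was at the lower limit. There 4 of the 5 had their value closest to 0 at that time point.

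**Figure D4:**
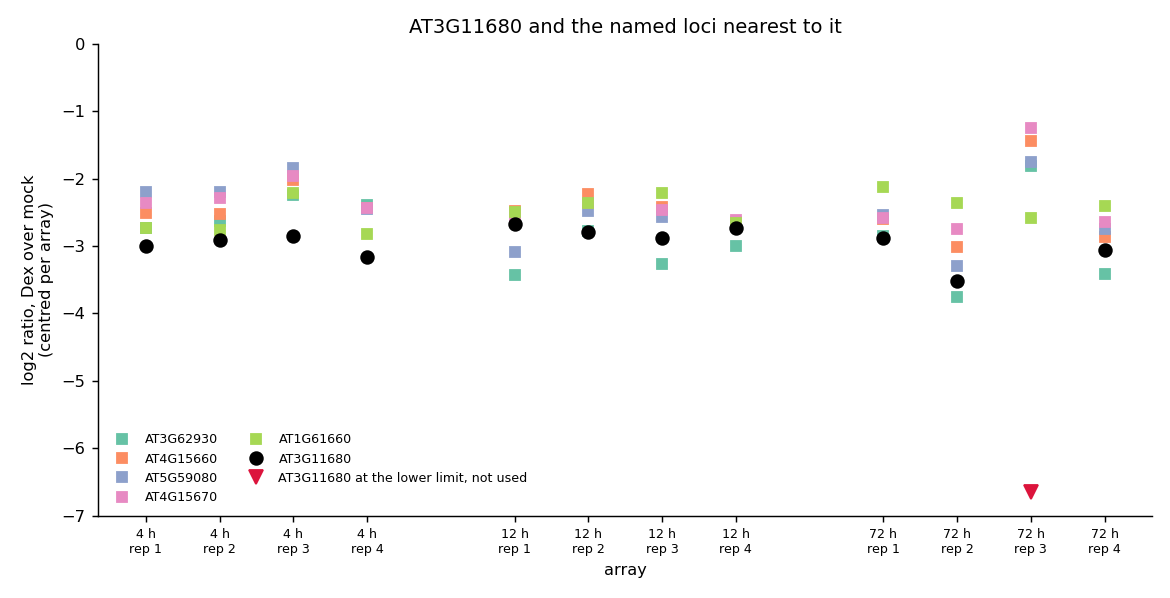
Centred log2 ratio of Dex over mock (vertical axis) of AT3G11680 (black circles) and the 5 named loci nearest to it (coloured squares) on each of the 12 arrays (horizontal axis). The squares lie between -3.75 and -1.24, and the red triangle marks the deposited value of AT3G11680 on 72 h replicate 3, at the lower limit and not used.

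The measured chromosome neighbour of AT3G11680 was AT3G11690. It was at -0.15 ± 0.15 at 4 h and -0.13 ± 0.20 at 12 h (n = 4 each; limma adjusted p = 0.488 and 0.51). At 72 h it was higher, at 0.34 ± 0.14 (limma adjusted p = 0.0336), as 9.88% of all features were. AT5G46620, beside AT5G46610, was also higher at 72 h, at 0.42 ± 0.36 (n = 4; limma adjusted p = 0.0244). AT1G18410, beside AT1G18420, was not called at any time point. DGD1, the neighbour of AT3G11680 on the other side, was not among the features tested under a name.

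Of 71 loci in 8 lists around malate and the tissues where the family is known, 9 had a named probe, and these 9 are called measured here. Further loci may lie among the 12130 probes without a name. In the list of malate metabolism, ICL, isocitrate lyase of the glyoxylate cycle, was the one of 3 measured loci that changed. It was at 0.17, -0.02, -0.06 and 0.13 at 4 h, a mean of 0.06 ± 0.11 (n = 4; limma adjusted p = 0.936). At 12 h it had fallen to -0.96, -0.82, -0.96 and -0.64, a mean of -0.84 ± 0.15 (1.80-fold; limma adjusted p = 0.00243). At 72 h it was at -1.48, -1.72, -2.53 and -2.09, a mean of -1.95 ± 0.46 (3.88-fold; limma adjusted p = 1.26e-05). Its 2 probes are listed with means that are identical in every digit and equal to those of the locus, so they cannot be read as separate measurements.

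The 2 malate dehydrogenase loci AT3G47520 and AT5G58330 did not pass at any time, with means between -0.30 and 0.09. The single measured locus of other malate and anion transport, AT5G19760, was at -0.30 ± 0.33, -0.63 ± 0.74 and -0.22 ± 0.52 (limma adjusted p = 0.477, 0.0535 and 0.461, with the labelled dye). At 12 h its positive-blank arrays averaged -0.06 and its negative-blank arrays -1.20. In the list of aluminium tolerance genes, AT1G51340, the one measured locus of 8, was higher at each time point. It was at 0.78 ± 0.17, 0.68 ± 0.08 and 0.56 ± 0.27 at 4, 12 and 72 h (n = 4 each; limma adjusted p = 0.00069, 0.00123 and 0.00371). Of all features, 1.25% were called higher at each of the 3 time points. Its 72 h call was lost when only the 72 h arrays entered the fit (limma adjusted p = 0.121). The list of synthesis and breakdown of GABA, an amino acid that acts on ALMT channels, had 0 measured loci.

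Of the markers of cell types in which ALMT channels are known, the one measured guard cell marker, AT3G24140, did not pass (-0.31 ± 0.08, -0.10 ± 0.16 and -0.23 ± 0.57; limma adjusted p = 0.30, 0.794 and 0.315). Of 2 measured pollen markers, VGD1, a pectin methylesterase of the pollen tube, was lower at 72 h (-0.90 ± 0.71, n = 4; limma adjusted p = 0.038), and AT2G47030 was not called. Without 72 h replicate 3, at -1.95, the value of VGD1 was -0.57 (limma adjusted p = 0.171). The root hair marker EXPA7, an expansin that loosens cell walls, was higher at each time point, at 0.65 ± 0.14, 0.83 ± 0.11 and 0.37 ± 0.27 (limma adjusted p = 0.00073, 0.000109 and 0.0131). Its 72 h call was lost without 72 h replicate 4 (limma adjusted p = 0.0806), under quantile normalization (limma adjusted p = 0.132) and when only the 72 h arrays entered the fit (limma adjusted p = 0.224). Whether these markers have a part in the values of the family was not tested.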

How the data were processed

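The deposited values are log2 ratios of both channels of each of 12 oligonucleotide arrays. Per the labels' protocols, T7 transcription of cDNA gave the amplified RNA to which Cy3 or Cy5 was coupled. How the authors corrected, normalized and centred the ratios is not given in the sources used here, and the log base was read from the limits, log2 of 100 and of 0.01. Values at a limit were treated as missing. Of 26540 rows, 26090 were gene probes, and 0 columns were without a sample. The 13960 probes with a name took their loci from a TAIR10.1 table (13912 matched), and probes of a locus were averaged. The dye labels, replicate numbers and time points come from the labels, where each of the 4 arrays per time point is a biological replicate.

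Features with at least 3 of 4 values per time point were tested (18125, of which 10654 named). Arrays were centred on their median, and limma 3.58.1 in R 4.3.3 fitted a mean per time point and the labelled dye to all 12 arrays. P-values are two-sided and adjusted by Benjamini-Hochberg over all features, with a threshold of 0.05. The fit was tested on simulated data. Means and SDs are over arrays, and intervals are 95% intervals of the fit. Precision depends on the number of arrays, and ratios give no signal over background. The members, the lists and the tests were chosen with earlier results of these data known. All members were named, with list loci that passed and the 5 loci nearest to AT3G11680 over its 11 values. Neighbouring loci were added after their values could be seen. Sequences of the loci were not used here. Alternatives changed the limits, centring, scaling, dye term, weights, filter, threshold, block and arrays used.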

Additional observations from a re-analysis of the deposited data

Results flagged for a closer look

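Among the 7 family loci and the 9 list loci whose differences between time points were tested, ICL was the one that passed, with the labelled dye in the fit. The difference of its log2 ratio was -0.90 from 4 to 12 h, -1.11 from 12 to 72 h and -2.01 from 4 to 72 h (SE 0.20 each; limma adjusted p = 0.0498, 0.0175 and 0.000489). The first of these lost its call under 16 of the 25 other settings and the second under 8, while the third kept it under all 25.

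In 33 groups of 4 arrays, 2 held a value far from the other 3 by Dixon's ratio, whose critical value for 4 samples is 0.829, and chance gives about 1 in 20. AT1G51340 on 4 h replicate 1, at 0.54, lay below the 0.83 to 0.88 of the other arrays (ratio 0.843). VGD1 (AT2G47040) on 72 h replicate 3, at -1.95, lay below the -0.68 to -0.45 of the others (ratio 0.845).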

How the results depend on the processing

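Of the other 7 loci, AT1G25480 and AT2G27240 kept their direction and their calls at 12 h under all 25 other settings. With array weights, 4 of the 7 loci were called at 4 h, and 1, 1 and 3 differed from 4 to 12 h, 12 to 72 h and 4 to 72 h. With arrays fitted only for the times compared, 1 locus was called at 72 h and 1 differed from 12 to 72 h. With the blank-spot sign as the dye, 1 differed from 12 to 72 h and 1 from 4 to 72 h. Without both 4 h arrays of opposite dye and blank sign, a setting chosen after seeing the data, 2 were called at 4 h and 1 differed from 12 to 72 h. Leaving out single arrays gave 1 to 2 (2 without 4 h replicate 1), 2 to 2 and 2 to 3 called loci in order of time, and 0 to 0, 0 to 1 (1 without 4 h replicate 3) and 0 to 0 that differed. Of the 9 list loci, 2, 3 and 4 changed at 4, 12 and 72 h. Of the 18125 features tested, 2009, 2867 and 3758 were called at those times. Array weights gave 5 and 6 list loci at 4 and 12 h, arrays fitted only for the time compared 5 at 12 h and 1 at 72 h, and quantile normalization and adjusted p under 0.01 gave 2 each at 72 h. With the blank-spot sign as the dye, 4 list loci were called at 12 h, 2 of them lower, against 1 lower with the labelled dye. The same counts came without both 4 h arrays of opposite dye and blank sign. Leaving out single arrays gave 2 to 2, 3 to 4 and 2 to 4 list loci (2 without 72 h replicate 4, beside 2449 of all features). The cause of these shifts was not tested. Of 12 same-numbered pairs of arrays 4 correlated above 0.1 in their deviations (range -0.29 to 0.32), and 2 arrays correlated best with their own number. Those 4 pairs shared their blank-spot sign and the rest, all below 0, did not. The check could therefore not show whether the numbers pair the samples, and no pairing was assumed. A replicate block gave 1, 2 and 2 family loci at 4, 12 and 72 h and 0 that differed, while over all features it took the calls from 441 to 157 between 4 and 12 h, from 750 to 327 between 12 and 72 h and from 1549 to 1010 between 4 and 72 h. Under it, VGD1 at 72 h and the 4 to 12 h difference of ICL were not called (limma adjusted p = 0.0936 and 0.102). AT3G11680 lay between -3.50 and -2.94 at 4 h, between -3.33 and -2.71 at 12 h and between -3.97 (limit values kept) and -2.60 (quantile normalization) at 72 h, below 0 in all 24 settings. Quantile normalization also turned its 12 h minus 4 h difference to -0.18. VGD1 at 72 h lost its call under 12 of the 25. Over all features, the other settings gave 1071 to 6579 calls at 4 h (2009 as reported), 1671 to 7225 at 12 h (2867) and 614 to 6543 at 72 h (3758), and for the differences 81 to 4686 (441), 167 to 4257 (750) and 592 to 6062 (1549), with array weights the highest each time. In all, 68 values that were called in neither setting changed sign. Ratios alone do not show which probes were near background.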
